A study of Homo sapiens with 36 samples.

Results

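Gene expression in PANC-1 cells given the compound 3A4 was compared with that in PANC-1 cells given the vehicle DMSO. PANC-1 is an established line from a human pancreatic ductal adenocarcinoma. The 6 libraries of the comparison, 3 with 3A4 and 3 with DMSO, were taken by the line and treatment in their labels from the 36 libraries of the series, and all genes that passed a filter on low counts are described. The labels call 3A4 an inverse agonist of the liver X receptors (LXR), and it is known here only by this code name. It was also set beside other groups of 3 libraries each: PANC-1 given the LXR agonist GW3965, PANC-1 given 1E5, a second compound that the labels call an LXR inverse agonist, and the lines BxPC-3 and MIA PaCa-2 given 3A4 or DMSO. Every ligand was given at 10 µM for 48 h. PANC-1 and MIA PaCa-2 were grown in DMEM and BxPC-3 in RPMI medium, both with fetal bovine serum, so line and medium cannot be told apart for BxPC-3. PANC-1 is 1 line in culture, and every group, DMSO included, was maintained in serum, which holds lipids and growth factors.

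The liver X receptors LXR-alpha (gene NR1H3) and LXR-beta (NR1H2) are nuclear receptors that bind oxysterols and sit on DNA as partners of the retinoid X receptors. An agonist makes them recruit coactivators and raises genes of cholesterol export (ABCA1, ABCG1), of LDL receptor turnover (MYLIP) and of fatty acid synthesis (SREBF1, SCD, FASN). An inverse agonist instead favours binding of corepressors such as NCOR1 and lowers transcription below its basal level. SREBF1 and SREBF2 encode the membrane-bound factors that switch on fatty acid and cholesterol synthesis when sterols are scarce, so the pathways overlap at several enzymes.

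Totals in the 6 libraries ran from 14960970 counts (3A4 replicate 3) to 25672534 (DMSO replicate 3), and the median standard error (SE) of a log2 fold change was 0.185. Replicates of a group differed by more than sampling noise, with a chi-square per degree of freedom of 15.4 to 38.6 over genes in the pairs of DMSO, 3A4 and GW3965 libraries. The labels call the libraries biological replicates but do not say how many cultures they came from, and the p-values cover only the spread between libraries, which may be technical. Genes of the mitochondrial genome took 7.70% ± 0.199 (SD, n = 3) of the counts with 3A4 and 6.82% ± 0.708 with DMSO. The cells carried the epithelial keratins KRT8 (2119 ± 407 CPM, the count scaled to library size, with DMSO) and KRT19 (1149 ± 325 CPM), the epithelial adhesion gene EPCAM (28.95 ± 5.46 CPM), the ductal factor SOX9 (124 ± 8.88 CPM) and the mesenchymal filament VIM (3074 ± 373 CPM), while the ductal gene CFTR was at 0 in every DMSO library. Of 8 markers of other cell types, PTPRC, PECAM1, INS, PRSS1 and CPA1 were at 0 with DMSO and had at most 3 counts in any library with 3A4. The summed level of the 8 was 55.2 to 181 CPM with DMSO and 14.6 to 41.1 CPM with 3A4, most of it from the collagen gene COL1A1. One library outside the comparison stood apart from its group, 1E5 replicate 2, and for this reason the comparison with DMSO was fitted on the 9 PANC-1 libraries without 1E5.

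3A4 changed the expression of 3020 of the 17919 genes tested (16.9%; edgeR quasi-likelihood test, adjusted p under 0.05). Of these, 1372 rose (7.66%) and 1648 fell (9.2%). The median size of a called change was 0.648 on the log2 scale, and 768 genes (4.29%) changed at least 2-fold, 475 upwards (2.65%) and 293 downwards (1.64%). Without the test, the 3 libraries of one group lay all above the other 3 for 6811 genes (38%), and 5801 genes had an unadjusted p under 0.05. Sequencing measures shares of the RNA in a library, so fewer cells of a kind and less RNA per cell cannot be told apart.

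**Figure D1:**
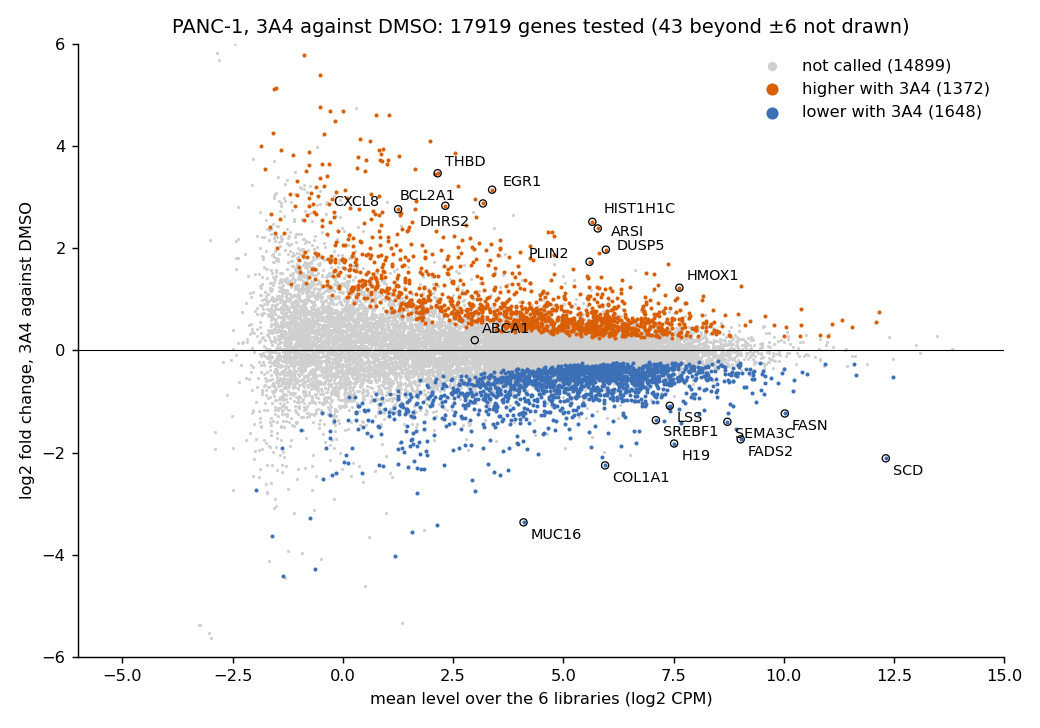
Each point is 1 of 17919 genes, with the mean level over the 6 libraries (log2 CPM) on the horizontal axis and the log2 fold change of 3A4 against DMSO on the vertical axis. Orange points are the 1372 genes called higher and blue points the 1648 called lower; 43 genes lie beyond the limits of the vertical axis. SCD, FASN and FADS2 are seen below 0 and EGR1, BCL2A1 and DHRS2 above it.

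The count of called genes depended on which libraries set the spread: it was 1367 with all 12 PANC-1 libraries in the fit, 1395 with all 36, and 1801, 1859, 1474 and 1592 without DMSO replicate 2, DMSO replicate 3, 3A4 replicate 1 and 3A4 replicate 3. With the 12 PANC-1 libraries less 1E5 replicate 2, the count was 3101, and 2849 of the 3020 main calls were kept. For genes named below, the alternatives among 16 that ended a call are given beside it.

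Of 848 genes in 42 lists of pathways and cell states, 733 passed the filter, and 230 of these were called, 117 higher and 113 lower. Some lists had 6 or more members called one way and at most 1 the other. Those with lower members were fatty acid synthesis (10 of 25 tested), cholesterol synthesis and uptake (17 of 27), semaphorins with their receptors (12 of 25), LXR targets (6 of 16) and ER chaperones (6 of 23). Those with higher members were heat shock proteins (6 of 16), the EGF family (6 of 8), replication-dependent histones (7 of 12), immediate early genes (7 of 15), NF-kB, chemokines and interleukins (8 of 19) and feedback genes of the ERK pathway (6 of 15). These counts are read against the 9.2% lower and 7.66% higher of all genes, and the median log2 fold change of all genes tested was 0.01.

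**Figure D2:**
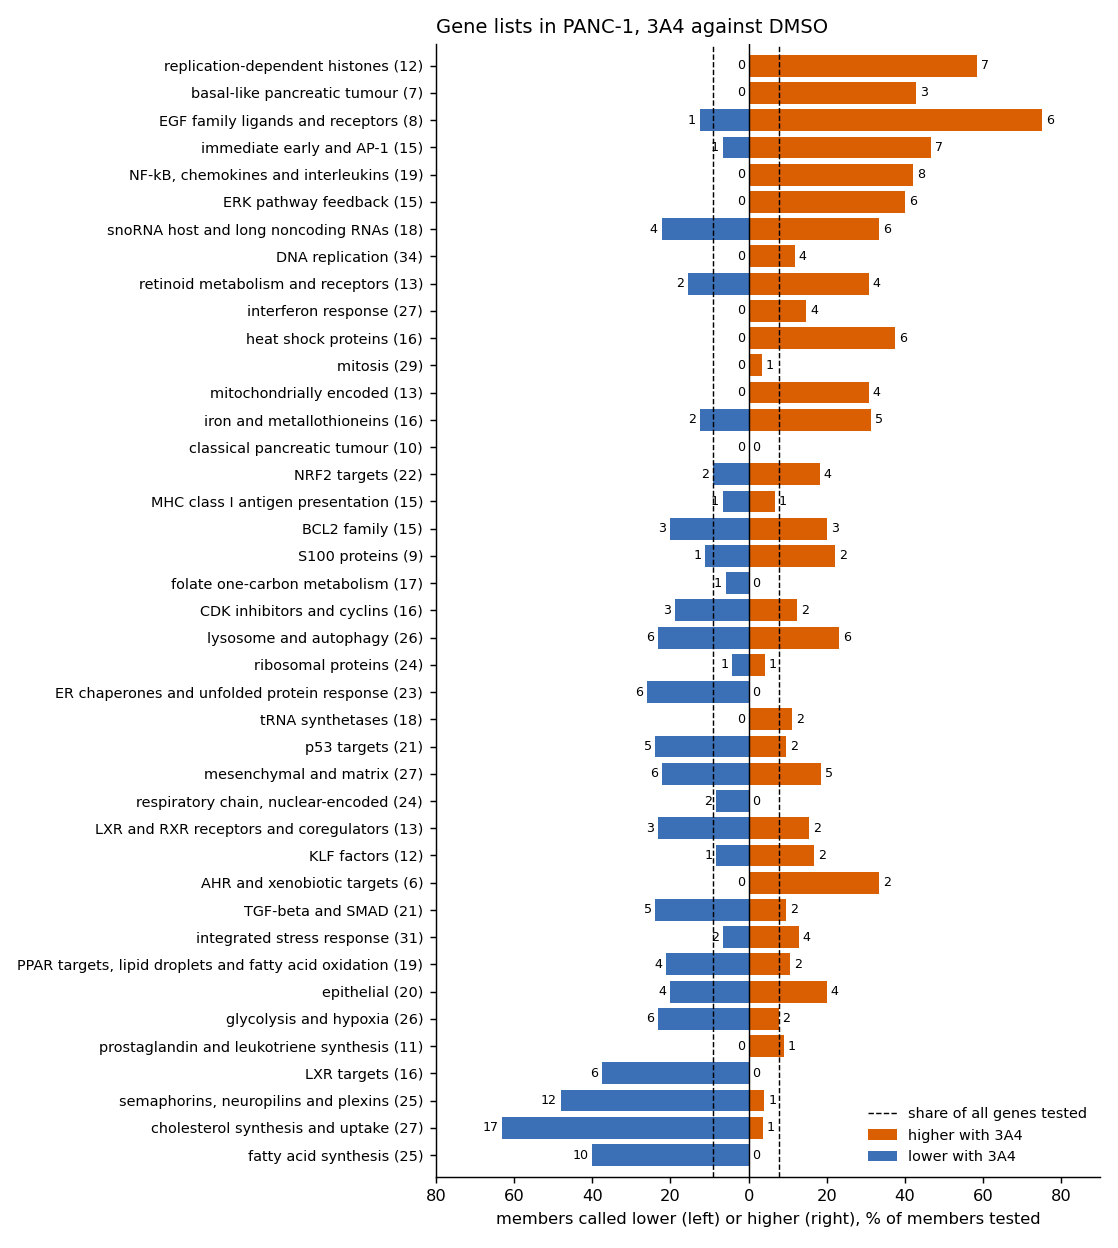
Each row is a gene list with at least 6 tested members (number in brackets), ordered by its median log2 fold change. Bars give the share of members called higher (orange, right) and lower (blue, left) in percent, with the counts at their ends, and dashed lines give the shares of all genes tested, 7.66% higher and 9.2% lower.

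Among LXR targets, the genes of fatty acid synthesis were lower with 3A4, while the cholesterol exporters were not called. SCD (ENSG00000099194, chromosome 10, 100347124 to 100364834; coordinates here and below are GRCh38), the desaturase that makes oleate from stearate, was at 6568, 11579 and 6662 CPM with DMSO and 1536, 2532 and 1664 with 3A4. Every 3A4 library was below every DMSO library, and SCD fell 4.33-fold (log2 fold change -2.11 ± 0.256 SE, adjusted p = 0.00140). SREBF1 (ENSG00000072310, chromosome 17, 17810399 to 17837002), the master factor of lipogenic genes, was at 149, 257 and 186 CPM with DMSO and 67.3, 92.6 and 69.9 with 3A4. Its groups did not overlap either, and it fell 2.58-fold (log2 fold change -1.37 ± 0.201 SE, adjusted p = 0.00311). LPCAT3 (ENSG00000111684, chromosome 12, 6976186 to 7018510), which loads polyunsaturated acyl chains onto phospholipids, fell from 58.2 ± 3.24 to 36.8 ± 1.91 CPM (log2 fold change -0.66 ± 0.0824 SE, adjusted p = 0.00153). The calls of SCD and SREBF1 ended with all 12 PANC-1 libraries in the fit (0.0533) and (0.0738), in that order.

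The exporters stood at low levels in both groups. ABCA1 (ENSG00000165029, chromosome 9, 104781002 to 104928237) was at 5.74, 8.91 and 7.47 CPM with DMSO and 6.12, 10.1 and 9.31 with 3A4, and the 2 ranges overlapped. Its log2 fold change was 0.20 with a 95% interval of -0.34 to 0.74 (adjusted p = 0.605). ABCG1 (ENSG00000160179, chromosome 21, 42199689 to 42297244) was at 1.14, 1.55 and 0.817 CPM with DMSO and 0.886, 0.629 and 0.706 with 3A4, a log2 fold change of -0.65 (95% interval -1.21 to -0.09, adjusted p = 0.106), and it passed only without DMSO replicate 3 (adjusted p = 0.0429). MYLIP (ENSG00000007944, chromosome 6, 16129125 to 16148248), a ligase that sends the LDL receptor to degradation, was at 15.8, 16.6 and 14.01 CPM with DMSO and 16.4, 17.4 and 15.99 with 3A4 (log2 fold change 0.10, 95% interval -0.12 to 0.33, adjusted p = 0.521). FASN, another called member of the list, is given with its pathway below, and the sterol carrier STARD4 fell from 48.0 ± 12.3 to 22.8 ± 1.39 CPM (log2 -1.07; call ended with all 12 PANC-1 libraries in the fit (0.226) and with all 36 (0.140)). In all, 6 of 16 targets were called (37.5%), and their median log2 fold change was -0.43. The count was 3 with all 12 PANC-1 libraries in the fit.

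Neither receptor gene was called. NR1H2 (ENSG00000131408, chromosome 19, 50329653 to 50382982) was at 43.1, 37.2 and 40.4 CPM with DMSO and 41.4, 42.1 and 35.4 with 3A4, a log2 fold change of -0.02 (95% interval -0.25 to 0.21, adjusted p = 0.912). NR1H3 (ENSG00000025434, chromosome 11, 47248300 to 47269032) was at 4.80, 7.20 and 7.98 CPM with DMSO and 7.45, 6.996 and 8.22 with 3A4, a log2 fold change of 0.18 (95% interval -0.27 to 0.62, adjusted p = 0.574). In the list of receptors, partners and coregulators, which holds both, 2 of 13 tested genes rose and 3 fell (38.5% called). NRIP1 (ENSG00000180530, chromosome 21, 14961235 to 15065936), a corepressor of several nuclear receptors that retinoic acid and oestrogen induce, was at 23.7, 23.2 and 27.3 CPM with DMSO and 71.6, 64.6 and 67.0 with 3A4. It rose 2.74-fold with no overlap between groups and was among the 5 genes with the smallest p that rose (log2 fold change 1.45 ± 0.0961 SE, adjusted p = 0.000173). RXRA, the partner receptor, fell from 62.3 ± 3.35 to 44.7 ± 6.20 CPM (log2 -0.48 ± 0.106). The corepressor NCOR1 fell by 0.39 on the log2 scale (call ended without 3A4 replicate 1 (0.0567)). Counted over the list, 3 with all 12 PANC-1 libraries in the fit or without 3A4 replicate 1 were called.

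Fatty acid synthesis turns citrate into acetyl-CoA (ACLY), malonyl-CoA (ACACA) and palmitate (FASN), which is then elongated and desaturated. 10 of the 25 tested genes of this list fell and 0 rose (40.0% called; median log2 fold change -0.58). FASN (ENSG00000169710, chromosome 17, 82078333 to 82098332) was at 1442, 1484 and 1455 CPM with DMSO and 586, 694 and 580.3 with 3A4, and fell 2.35-fold (log2 fold change -1.24 ± 0.0805 SE, adjusted p = 0.000173). The 3 libraries of each group lay close together, far from the other group, and FASN had one of the 5 smallest p-values among genes that fell. ACLY (ENSG00000131473, chromosome 17, 41866908 to 41930542) was at 421, 447 and 382 CPM with DMSO and 247, 252 and 219 with 3A4 and fell 1.74-fold (log2 fold change -0.80 ± 0.0862 SE, adjusted p = 0.000893). ACACA, the carboxylase between these steps, fell from 314 ± 24.8 to 173 ± 11.9 CPM (log2 -0.86 ± 0.115). The desaturases of polyunsaturated acids fell as well. FADS2 (ENSG00000134824, chromosome 11, 61792980 to 61867354), which takes the first step from linoleate, was at 734, 977 and 690.4 CPM with DMSO and 199, 311 and 208 with 3A4, 3.34-fold lower (log2 fold change -1.74 ± 0.189 SE, adjusted p = 0.000903). FADS1, its neighbour in the pathway and on the chromosome, fell from 625 ± 123 to 295 ± 35.96 CPM (log2 -1.08 ± 0.149). Every library with 3A4 was below every DMSO library for all 5 of these genes. The mitochondrial citrate carrier SLC25A1 fell by 0.67 on the log2 scale (call ended with all 12 PANC-1 libraries in the fit (0.0735)). Over the list, the count was 5 with all 12 PANC-1 libraries in the fit.

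Cholesterol synthesis runs from acetyl-CoA through mevalonate, isoprenyl diphosphates and squalene to lanosterol and cholesterol, and 17 of 27 genes of its list fell with 3A4 (66.7% called in either direction; median log2 fold change -0.50). LSS (ENSG00000160285, chromosome 21, 46188141 to 46228824), which closes the sterol rings to lanosterol, was at 220.3, 253 and 222 CPM with DMSO and 107, 109 and 112 with 3A4 and fell 2.12-fold (log2 fold change -1.08 ± 0.0760 SE, adjusted p = 0.000193). TM7SF2 (ENSG00000149809, chromosome 11, 65111845 to 65116384), a reductase of the late sterol steps, was at 53.9, 58.8 and 50.2 CPM with DMSO and 20.5, 14.03 and 15.3 with 3A4 and fell 3.27-fold (log2 fold change -1.71 ± 0.172 SE, adjusted p = 0.000680). Both genes had non-overlapping groups, and the fall of TM7SF2 was the steepest of this list. FDPS, which makes farnesyl diphosphate, fell from 133 ± 7.58 to 71.5 ± 8.59 CPM (log2 -0.89 ± 0.100), and ACAT2, the thiolase of the first step, from 150.1 ± 18.9 to 89.4 ± 0.613 CPM (log2 -0.75 ± 0.100). MSMO1, a sterol oxidase, fell by 0.90 on the log2 scale (call ended with all 12 PANC-1 libraries in the fit (0.164) and with all 36 (0.113)). The member that rose was NPC1L1, an intestinal sterol importer at 0 counts in all DMSO libraries, and its call ended when any 1 library was left out (adjusted p = 0.0554 to 0.0859). Over the list, the count was 5 with all 12 PANC-1 libraries in the fit and 8 with all 36.

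SREBF2, the factor that drives these genes, fell from 204 ± 27.6 to 137 ± 4.46 CPM (log2 fold change -0.58 ± 0.105 SE, adjusted p = 0.00775; call ended with all 12 PANC-1 libraries in the fit (0.148)). Its promoter is printed because it was the only one among the 21 tested cholesterol-list genes matched by symbol in the RefSeq promoter table (GRCh38.p14, windows of 300 bases) that held the sterol response element core TCACNCCAC on either strand, which SREBF factors bind. The match, in capitals, begins 133 bases before the gene start. The 250 bases before that start, chr22:41832855-41833104 on the plus strand, read 5′ to 3′:
SREBF2: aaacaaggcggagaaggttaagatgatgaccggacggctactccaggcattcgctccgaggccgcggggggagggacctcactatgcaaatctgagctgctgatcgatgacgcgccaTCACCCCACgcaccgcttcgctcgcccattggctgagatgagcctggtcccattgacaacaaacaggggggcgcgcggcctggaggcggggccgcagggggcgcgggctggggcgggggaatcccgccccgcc
The core was present in 1.15% of all 27305 promoters of the table and in 1.16% of the 1209 promoters of genes called lower. A match is a description of the letters, not of a bound site.

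**Figure D3:**
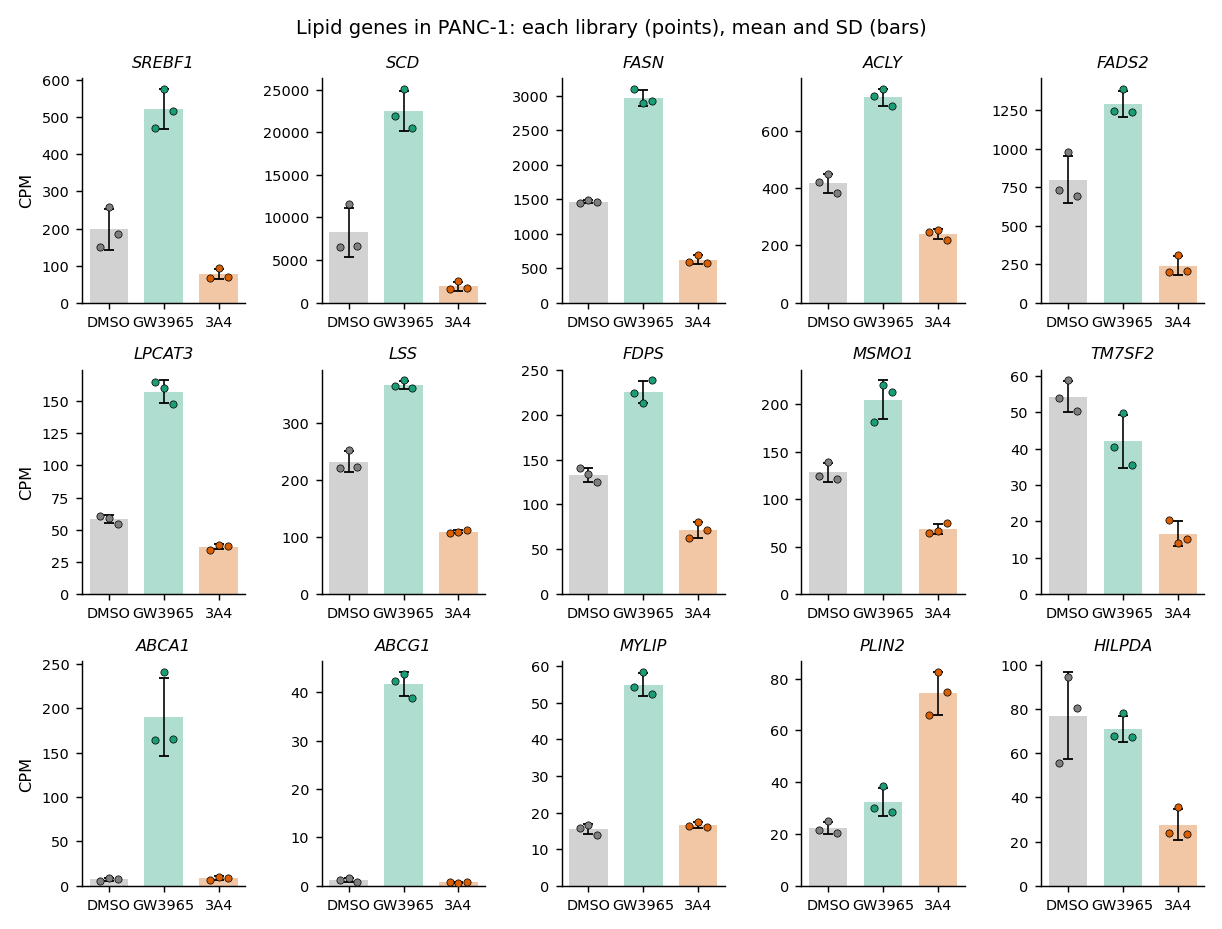
Level in CPM of 15 lipid genes in the PANC-1 libraries given DMSO, GW3965 or 3A4. Points are libraries, bars are means and error bars SD (n = 3); each panel has its own linear axis from 0. SREBF1, SCD, FASN, ACLY, FADS2, LPCAT3, LSS, FDPS, MSMO1 and TM7SF2 are lowest with 3A4, while ABCA1 and ABCG1 are highest with GW3965 and PLIN2 with 3A4.

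Genes of fat storage did not move in 1 direction. PLIN2 (ENSG00000147872, chromosome 9, 19108375 to 19149290), the coat protein of lipid droplets, was at 21.5, 24.9 and 20.5 CPM with DMSO and 65.8, 82.4 and 74.7 with 3A4 and rose 3.33-fold (log2 fold change 1.74 ± 0.146 SE, adjusted p = 0.000353). FABP5, a carrier of fatty acids, rose from 22.2 ± 3.64 to 53.5 ± 4.04 CPM (log2 1.27 ± 0.183). HILPDA (ENSG00000135245, chromosome 7, 128455849 to 128458418), a droplet protein that inhibits the lipase ATGL, was at 55.5, 94.6 and 80.6 CPM with DMSO and 23.9, 35.7 and 23.5 with 3A4 and fell 2.77-fold (log2 fold change -1.47 ± 0.217 SE, adjusted p = 0.00316). PLIN4, another droplet coat gene, fell from 27.4 ± 4.54 to 10.2 ± 1.91 CPM (log2 -1.43 ± 0.207). Groups did not overlap for these 4 genes. In all 2 of 19 members of the list of PPAR targets, droplets and oxidation rose and 4 fell (31.6% called, beside 16.9% of all genes).

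The immediate early genes, which growth factors, serum or stress switch on through SRF and AP-1, were among the groups with higher members. 7 of 15 tested rose and 1 fell (53.3% called; median log2 fold change 0.72). EGR1 (ENSG00000120738, chromosome 5, 138465490 to 138469315), a zinc finger factor, was at 2.72, 2.56 and 1.09 CPM with DMSO and 19.98, 17.2 and 19.1 with 3A4, and rose 8.86-fold (log2 fold change 3.15 ± 0.342 SE, adjusted p = 0.000912). FOSB (ENSG00000125740, chromosome 19, 45467995 to 45475179), an AP-1 subunit, was at 1.53, 0.285 and 0.350 CPM with DMSO and 8.58, 3.07 and 11.8 with 3A4 and rose 10.99-fold (log2 fold change 3.46 ± 0.695 SE, adjusted p = 0.0115). FOS, its close relative, rose from 0.424 ± 0.322 to 2.76 ± 0.865 CPM (log2 2.72 ± 0.556). All 3 were low with DMSO and higher in every 3A4 library, with a wide spread among the 3A4 libraries for FOSB. JUN, their partner, rose from 85.2 ± 1.17 to 141 ± 9.30 CPM (log2 0.72; call ended with all 12 PANC-1 libraries in the fit (0.0689)). JUND, the AP-1 subunit of resting cells, fell by 0.60 on the log2 scale (call ended with all 12 PANC-1 libraries in the fit (0.0587)). Over the list, the count was 4 with all 12 PANC-1 libraries in the fit.

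The EGR1 promoter is printed because it holds CArG boxes, the sites of SRF, and belongs to an immediate early gene that rose. Of 12 tested list genes matched in the same table, the promoters of EGR1 and of SRF itself held a CArG box, against 1.29% of all 27305 promoters, and SRF was not called. The EGR1 window held 2 of them, in capitals, which begin 105 and 83 bases before the gene start. The 250 bases before the start, chr5:138465229-138465478 on the plus strand, read 5′ to 3′:
EGR1: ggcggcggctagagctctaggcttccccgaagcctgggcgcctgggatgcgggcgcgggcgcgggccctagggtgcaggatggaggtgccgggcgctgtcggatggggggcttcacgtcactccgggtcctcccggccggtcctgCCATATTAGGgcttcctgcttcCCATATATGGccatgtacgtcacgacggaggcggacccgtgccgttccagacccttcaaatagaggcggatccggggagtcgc

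Ligands of the EGF receptor and the phosphatases and inhibitors that ERK signalling induces against itself were higher too. 6 of 8 members of the EGF family list rose and 1 fell, and 6 of 15 ERK feedback genes rose and 0 fell. HBEGF (ENSG00000113070, chromosome 5, 140332843 to 140346631), a ligand shed from the membrane, was at 4.70, 1.87 and 5.06 CPM with DMSO and 16.6, 14.8 and 13.8 with 3A4 and rose 3.89-fold (log2 fold change 1.96 ± 0.312 SE, adjusted p = 0.00422). EREG was at 4.31, 4.72 and 7.12 CPM with DMSO and 13.9, 16.4 and 19.3 with 3A4 and rose 3.06-fold. AREG (ENSG00000109321, chromosome 4, 74445134 to 74455009) was at 0.990, 1.099 and 1.63 CPM with DMSO and 4.03, 4.13 and 4.69 with 3A4 and rose 3.42-fold (log2 fold change 1.77 ± 0.227 SE, adjusted p = 0.00176). The 3 ligand genes did not overlap between groups. The receptor gene EGFR rose by 0.38 on the log2 scale (call ended with all 12 PANC-1 libraries in the fit (0.283) and with all 36 (0.379)). DUSP5 (ENSG00000138166, chromosome 10, 110497838 to 110511544), a phosphatase of nuclear ERK, was at 33.2, 18.5 and 24.4 CPM with DMSO and 98.9, 101 and 98.1 with 3A4 and rose 3.93-fold (log2 fold change 1.97 ± 0.185 SE, adjusted p = 0.000516). DUSP6, which removes phosphate from cytoplasmic ERK, rose from 12.2 ± 1.53 to 20.4 ± 1.62 CPM, DUSP1 from 41.3 ± 7.02 to 76.3 ± 2.82 CPM, and the RTK inhibitor SPRY2 from 19.04 ± 1.47 to 31.9 ± 3.15 CPM. These changes were 0.74, 0.89 and 0.75 on the log2 scale, again without overlap. The EGF family count was 4 with all 12 PANC-1 libraries in the fit or with all 36.

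**Figure D4:**
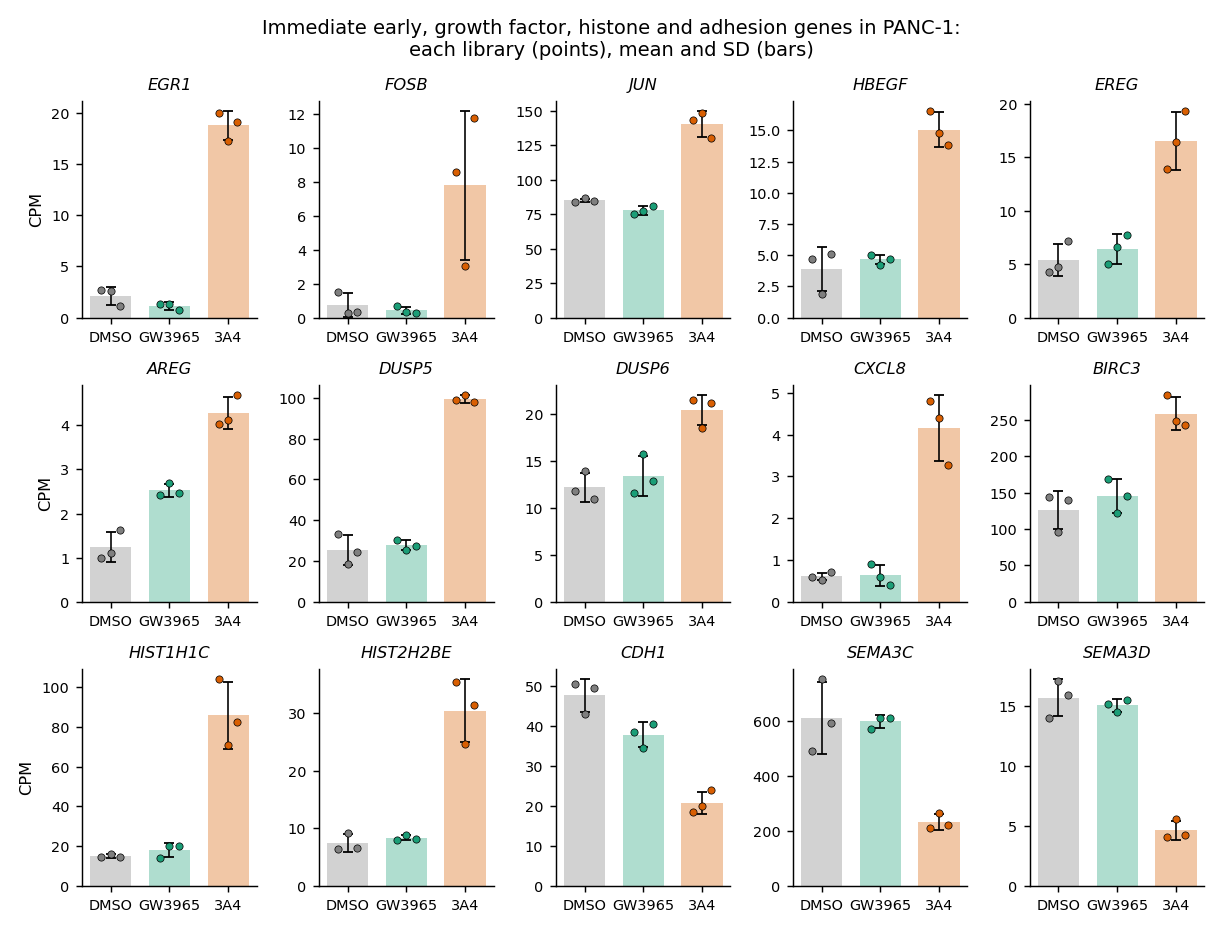
Level in CPM of 15 genes of signalling, chromatin and adhesion in the PANC-1 libraries given DMSO, GW3965 or 3A4. Points are libraries, bars are means and error bars SD (n = 3), on a linear axis from 0 in each panel. EGR1, FOSB, HBEGF, EREG, AREG, DUSP5, CXCL8, BIRC3, HIST1H1C and HIST2H2BE are highest with 3A4, and CDH1, SEMA3C and SEMA3D lowest.

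Inflammatory genes under NF-kB were higher, 8 of 19 tested, and none of the list fell. CXCL8 (ENSG00000169429, chromosome 4, 73740506 to 73743716), the neutrophil chemokine interleukin 8, was at 0.594, 0.529 and 0.700 CPM with DMSO and 4.79, 4.40 and 3.27 with 3A4, and rose 6.80-fold (log2 fold change 2.77 ± 0.321 SE, adjusted p = 0.00116). BIRC3, an inhibitor of apoptosis that NF-kB induces, was at 144, 96.2 and 139 CPM with DMSO and 284, 249 and 243 with 3A4 and rose 2.05-fold (log2 fold change 1.03 ± 0.169 SE, adjusted p = 0.00483). LIF, a cytokine of the interleukin 6 family, rose from 63.3 ± 6.75 to 95.1 ± 10.1 CPM (log2 0.59). The groups did not overlap for these genes, though the CXCL8 level stayed low. The feedback gene TNFAIP3 rose by 0.97 (call ended without DMSO replicate 2 (0.0583), without 3A4 replicate 1 (0.0699) and with all 36 (0.0706)). Of the interferon response, 4 of 27 genes rose and none fell (14.8% higher, beside 7.66% of all genes). The count was 1 with all 12 PANC-1 libraries in the fit or without DMSO replicate 3 or 3A4 replicate 2, 2 with all 36 or with no filter or without 3A4 replicate 1 or 3A4 replicate 3 and 7 with DESeq2. The highest interferon count in any alternative was 10. The NF-kB count was 4 with all 12 PANC-1 libraries in the fit or without DMSO replicate 2 or DMSO replicate 3 or 3A4 replicate 2 and 3 without 3A4 replicate 1.

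Histone genes whose mRNA normally lacks a poly(A) tail rose together: 7 of 12 tested rose and 0 fell, and their median log2 fold change was 1.40. HIST1H1C (ENSG00000187837, chromosome 6, 26055787 to 26056428), a linker histone, was at 14.5, 16.03 and 14.5 CPM with DMSO and 104, 70.9 and 82.8 with 3A4 and rose 5.73-fold (log2 fold change 2.52 ± 0.179 SE, adjusted p = 0.000193). HIST2H2BE (ENSG00000184678, chromosome 1, 149884459 to 149886652), a core histone H2B, was at 6.34, 9.20 and 6.58 CPM with DMSO and 35.4, 24.6 and 31.3 with 3A4 and rose 4.12-fold (log2 fold change 2.04 ± 0.185 SE, adjusted p = 0.000457). HIST2H2AC rose from 0.812 ± 0.101 to 4.22 ± 0.928 CPM and HIST1H2BC from 7.41 ± 1.62 to 21.4 ± 3.83 CPM. Every 3A4 library was above every DMSO library for these genes. Reads of near-identical histone copies can be split between genes, so their single values are uncertain.

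Few genes of the cell cycle lists were called. Of 29 mitosis genes 1 rose and none fell, and of 34 replication genes 4 rose and none fell (3.45% and 11.8% called). Their median log2 fold changes were 0.30 and 0.38, above that of all genes, with most members not past the threshold. Estimates lay above 0 for 27 and below for 2 mitosis genes, and above for 31 and below for 3 replication genes. Of all genes tested 9173 lay above 0 and 8746 below. CCND2, a D-type cyclin, was at 0.792, 0.855 and 0.856 CPM with DMSO and 2.18, 2.63 and 2.25 with 3A4 and rose 2.81-fold (log2 fold change 1.49 ± 0.252 SE, adjusted p = 0.00562). RBL2, the pocket protein p130 of quiescent cells, fell from 71.4 ± 7.23 to 47.1 ± 4.54 CPM (log2 -0.60 ± 0.118). The CDK inhibitor gene CDKN1A had a log2 fold change of -0.21 (95% interval -0.47 to 0.05, adjusted p = 0.249). Of the replication list, 1 without DMSO replicate 2 or 3A4 replicate 1 or 3A4 replicate 2 or 3A4 replicate 3, 2 with all 12 PANC-1 libraries in the fit or with no filter or without DMSO replicate 3 and 9 with DESeq2 were called, and of the mitosis list 0 with all 12 PANC-1 libraries in the fit or with no filter or without DMSO replicate 1 or DMSO replicate 2 or 3A4 replicate 1 or 3A4 replicate 2 or 3A4 replicate 3 and 2 with all 36 or with DESeq2. The highest mitosis count in any alternative was 6.

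Stress pathways moved in parts. Of 31 genes of the integrated stress response, in which ATF4 raises amino acid supply, 4 rose and 2 fell, a share called (19.4%) near the 16.9% of all genes. The count was 3 without 3A4 replicate 3, 11 with DESeq2 and at most 14 in any alternative. PPP1R15A, the phosphatase subunit GADD34 that ends the response, was at 33.5, 29.8 and 22.2 CPM with DMSO and 78.5, 65.8 and 57.7 with 3A4 and rose 2.37-fold (log2 fold change 1.24 ± 0.180 SE, adjusted p = 0.00286). SLC3A2, a subunit of amino acid exchangers, rose from 118 ± 11.99 to 195 ± 23.6 CPM (log2 0.72). DDIT4, an inhibitor of mTORC1, was at 152, 341 and 181 CPM with DMSO and 82.5, 104 and 70.3 with 3A4 and fell 2.62-fold (call ended without 3A4 replicate 3 (0.0501)). Of the ER chaperones, 6 of 23 fell and none rose. The list as a whole was not shifted, with 11 estimates above 0, 12 below and a median log2 fold change of -0.002. Among those that fell was PDIA4, a disulfide isomerase, from 484 ± 49.0 to 319.6 ± 15.2 CPM (call ended with all 12 PANC-1 libraries in the fit (0.167)). The ER chaperone count was 0 with all 12 PANC-1 libraries in the fit and 1 with all 36. Cytosolic heat shock proteins had 6 of 16 called higher and none lower, with 14 estimates above 0, 2 below and a median of 0.30. That count was 1 with all 12 PANC-1 libraries in the fit, with all 36, or without DMSO replicate 2 or 3 or 3A4 replicate 1. It was 0 without 3A4 replicate 3.

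Of 22 targets of the antioxidant factor NRF2, 4 rose and 2 fell (27.3% called, beside 16.9% of all genes). HMOX1 (ENSG00000100292, chromosome 22, 35380361 to 35394214), which breaks down haem, was at 123, 125 and 108 CPM with DMSO and 315, 222 and 298 with 3A4 and rose 2.34-fold (log2 fold change 1.23 ± 0.145 SE, adjusted p = 0.00127). OSGIN1, an oxidative stress gene, rose from 4.77 ± 0.550 to 12.6 ± 1.69 CPM (log2 1.41 ± 0.209). Both had non-overlapping groups. Of 17 targets of the aryl hydrocarbon receptor 11 did not pass the filter. Of the 6 tested 2 rose (33.3% called, beside 16.9% of all genes), and 4 had estimates below 0 (median log2 fold change of the 6 -0.14). CYP1A1, a cytochrome P450 that this receptor induces, had no counts in any DMSO library and 1.49, 0.550 and 0.771 CPM with 3A4, at least 22.01-fold higher when set against 3 counts over the summed DMSO totals. With no counts in DMSO, CYP1A1 could pass the filter only through the other groups. The receptor's feedback gene TIPARP rose from 34.9 ± 0.891 to 58.3 ± 13.8 CPM (call ended without DMSO replicate 3 (0.0539)). The NRF2 count was 3 with all 12 PANC-1 libraries in the fit or with all 36, and that of the aryl hydrocarbon receptor targets 1 with counts thinned to equal totals or without DMSO replicate 3.

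The BCL2 family had members in both directions, 3 of 15 higher and 3 lower (40% called, beside 16.9% of all genes). BCL2A1 (ENSG00000140379, chromosome 15, 79960889 to 79971446), an inhibitor of apoptosis that NF-kB induces, was at 2.28, 1.91 and 2.30 CPM with DMSO and 13.2, 18.2 and 16.4 with 3A4 and rose 7.35-fold (log2 fold change 2.88 ± 0.231 SE, adjusted p = 0.000316). BMF (ENSG00000104081, chromosome 15, 40087890 to 40108892), a BH3-only activator of apoptosis, was at 22.2, 25.9 and 11.8 CPM with DMSO and 1.33, 5.42 and 4.37 with 3A4 and fell 5.40-fold (log2 fold change -2.43 ± 0.489 SE, adjusted p = 0.0115). BOK, a pore-forming member, fell from 64.5 ± 4.21 to 44.5 ± 3.23 CPM (log2 -0.53). The groups were apart for these 3 genes. Of 21 p53 targets 2 rose and 5 fell (33.3% called). TP53INP1, a p53 target with a role in autophagy, was at 31.9, 38.6 and 34.3 CPM with DMSO and 12.6, 10.2 and 10.8 with 3A4 and fell 3.12-fold (log2 fold change -1.64 ± 0.143 SE, adjusted p = 0.000402). The p53 count was 2 with all 12 PANC-1 libraries in the fit or without DMSO replicate 3, 3 without 3A4 replicate 1 or 3A4 replicate 3 and 1 with all 36, and that of the BCL2 family 3 without DMSO replicate 2 or DMSO replicate 3.

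The semaphorins with their receptors were another group with many lower members. Semaphorins signal through plexin and neuropilin receptors to steer axons and migrating cells, and 12 of 25 tested members fell while 1 rose (52.0% called; median log2 fold change -0.49). SEMA3C (ENSG00000075223, chromosome 7, 80742538 to 80922359), a secreted ligand, was at 491, 753 and 592 CPM with DMSO and 209.6, 265 and 221 with 3A4 and fell 2.64-fold (log2 fold change -1.40 ± 0.152 SE, adjusted p = 0.000903). SEMA3D (ENSG00000153993, chromosome 7, 84995553 to 85186855), another secreted ligand, was at 14.1, 17.1 and 15.95 CPM with DMSO and 4.11, 5.54 and 4.24 with 3A4 and fell 3.38-fold (log2 fold change -1.76 ± 0.150 SE, adjusted p = 0.000364). Of the membrane-bound ligands, SEMA6C fell from 11.7 ± 1.80 to 3.23 ± 0.463 CPM. Among receptors, PLXND1 fell from 466 ± 14.1 to 247 ± 10.7 CPM (log2 -0.91 ± 0.0666). The member that rose was SEMA7A, anchored by a lipid and a ligand of integrins, from 9.66 ± 1.02 to 25.1 ± 2.62 CPM (log2 1.38 ± 0.198). Groups did not overlap for any of these 5 genes. The count was 7 with all 12 PANC-1 libraries in the fit.

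Of the epithelial list 4 of 20 rose and 4 fell, and of the mesenchymal and matrix list 5 of 27 rose and 6 fell, so neither moved 1 way. The shares called were 40% and 40.7%, beside 16.9% of all genes. CDH1 (ENSG00000039068, chromosome 16, 68737225 to 68835548), the epithelial cadherin, was at 50.4, 43.0 and 49.6 CPM with DMSO and 18.4, 20.05 and 23.9 with 3A4 and fell 2.30-fold (log2 fold change -1.20 ± 0.124 SE, adjusted p = 0.000730). CLDN1, a tight junction claudin, was at 43.5, 28.5 and 31.8 CPM with DMSO and 74.5, 75.7 and 71.9 with 3A4 and rose 2.14-fold (log2 fold change 1.099 ± 0.183 SE, adjusted p = 0.00515). KRT80, a keratin, rose from 44.5 ± 14.4 to 116 ± 46.8 CPM. ITGA2, a collagen-binding integrin chain, was at 68.0, 75.0 and 92.7 CPM with DMSO and 192, 362 and 206 with 3A4 and rose 3.22-fold (log2 fold change 1.69 ± 0.231 SE, adjusted p = 0.00224), whereas its partner chain ITGB1 fell from 1432 ± 79.9 to 964 ± 22.6 CPM (log2 -0.57). COL6A1, a chain of the microfibrillar collagen VI, fell from 58.7 ± 4.02 to 28.7 ± 2.50 CPM (log2 -1.03). None of these genes overlapped between groups. COL1A1, the fibrillar collagen, was at 48.6, 168 and 89.0 CPM with DMSO and 10.1, 33.0 and 21.1 with 3A4 and fell 4.76-fold, but its call ended without DMSO replicate 2 (0.0881), without DMSO replicate 3 (0.0564), without 3A4 replicate 1 (0.0898) and without 3A4 replicate 3 (0.0896). The epithelial count was 4 without DMSO replicate 2 or DMSO replicate 3 or 3A4 replicate 1 or 3A4 replicate 3 and 5 with all 12 PANC-1 libraries in the fit or with all 36, and the mesenchymal count 7 without DMSO replicate 3 or 3A4 replicate 1, 6 with all 12 PANC-1 libraries in the fit and 5 with all 36.

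Among genes that mark classical and basal-like pancreatic tumours, 12 of 22 classical and 10 of 17 basal-like genes did not pass the filter. None of the 10 classical genes tested was called (edgeR, with 1 at an unadjusted p under 0.05, and 1 called with DESeq2). Of the 7 basal-like genes tested 3 rose, beside 7.66% of all genes, so both counts rest on a part of each list. Those 3 were AREG, above, the calcium-binding protein gene S100A2, at 2.97, 1.87 and 1.95 CPM with DMSO and 8.42, 7.47 and 8.67 with 3A4 (3.62-fold higher; log2 fold change 1.86 ± 0.317 SE, adjusted p = 0.00579), and DHRS9, a retinol dehydrogenase. The related S100A10, a partner of annexin A2, fell from 796 ± 82.4 to 446 ± 18.1 CPM (log2 -0.84).

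Retinoid metabolism, which makes and removes the ligands of the retinoic acid receptors, had 4 of 13 genes higher and 2 lower. That is 46.2% called, beside 16.9% of all genes. DHRS3 (ENSG00000162496, chromosome 1, 12567910 to 12617731), which turns retinal back to retinol and is a retinoic acid target, was at 43.8, 47.9 and 36.5 CPM with DMSO and 112, 84.1 and 90.8 with 3A4 and rose 2.24-fold (log2 fold change 1.16 ± 0.140 SE, adjusted p = 0.00138). DHRS9 was at 0.346, 0.203 and 0.195 CPM with DMSO and 3.99, 2.55 and 3.40 with 3A4 and rose 13.3-fold (log2 fold change 3.73 ± 0.341 SE, adjusted p = 0.000457). CYP26A1, which clears retinoic acid, was at 0.495, 1.14 and 0.623 CPM with DMSO and 4.23, 2.63 and 3.15 with 3A4 and rose 4.39-fold (call ended with all 36 (0.111)). Every 3A4 library was above every DMSO library for these 3 genes. CRABP2, which carries retinoic acid to the nucleus, fell from 594 ± 72.5 to 287 ± 5.44 CPM (call ended with all 12 PANC-1 libraries in the fit (0.151) and with all 36 (0.0884)).

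Of 26 glycolysis and hypoxia genes 6 fell and 2 rose (30.8% called, beside 16.9% of all genes). PFKL, the liver-type phosphofructokinase, was at 94.9, 111 and 95.4 CPM with DMSO and 51.3, 65.5 and 50.1 with 3A4 and fell 1.81-fold (log2 fold change -0.85 ± 0.119 SE, adjusted p = 0.00248). LDHA, which makes lactate, fell from 907 ± 149.7 to 528 ± 10.7 CPM (call ended with all 12 PANC-1 libraries in the fit (0.0563)). The count was 3 without 3A4 replicate 1 or 3A4 replicate 3, 4 with all 12 PANC-1 libraries in the fit and 5 with all 36. Lysosome and autophagy genes were called in 12 of 26 cases (46.2%), 6 higher and 6 lower. NPC1, the lysosomal cholesterol exporter, rose from 139 ± 6.31 to 188 ± 14.4 CPM (log2 0.44), and NPC2, the soluble carrier that hands it cholesterol, fell from 85.9 ± 6.37 to 59.3 ± 0.508 CPM (log2 -0.54; call ended with all 12 PANC-1 libraries in the fit (0.124)). ATG7, an enzyme of autophagosome formation, rose from 26.3 ± 1.20 to 40.9 ± 2.44 CPM (log2 0.64). The count was 6 without DMSO replicate 2 or 3A4 replicate 1 or 3A4 replicate 3 and 5 with all 12 PANC-1 libraries in the fit or with all 36. Of 16 genes of iron and metal handling, 5 rose and 2 fell (43.8% called). Of its metallothioneins, which bind zinc and copper, MT1F and MT1M were not called and MT1E rose by 0.72 on the log2 scale (call ended with all 12 PANC-1 libraries in the fit (0.101)). MT1X rose from 6.35 ± 1.12 to 13.004 ± 0.458 CPM and MT2A from 150.0 ± 34.3 to 284 ± 24.5 CPM, while the zinc exporter SLC30A1 fell from 135 ± 24.1 to 79.7 ± 5.63 CPM. These log2 fold changes were 1.04, 0.92 and -0.76. LCN2, which carries iron-binding siderophores, had no counts with DMSO and 0.806, 1.14 and 0.385 CPM with 3A4.

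In a list of 18 snoRNA hosts and well-known long noncoding RNAs, 10 were called, 6 higher and 4 lower, and the count was 5 without DMSO replicate 2 or 3A4 replicate 1, 6 without 3A4 replicate 3 and 4 with all 12 PANC-1 libraries in the fit. Over all 754 long intergenic noncoding RNA genes 11.7% were called. H19 (ENSG00000130600, chromosome 11, 1995176 to 2001470), an imprinted fetal RNA, was at 282, 337 and 235 CPM with DMSO and 62.7, 116 and 62.8 with 3A4 and fell 3.54-fold (log2 fold change -1.82 ± 0.269 SE, adjusted p = 0.00314). GAS5, a host of small nucleolar RNAs, rose from 50.8 ± 7.17 to 88.6 ± 6.97 CPM (log2 0.80), and NORAD, which sequesters Pumilio proteins, fell from 280.5 ± 58.6 to 157 ± 5.83 CPM (log2 -0.84). The groups did not overlap for these RNAs. Of 13 mitochondrially encoded genes 4 rose, among them the complex I genes MT-ND1 and MT-ND2 (log2 0.59 and 0.75), beside the share of mitochondrial counts given above; the count was 2 with all 36. Nuclear-encoded respiratory chain genes (2 of 24 lower), ribosomal protein genes (2 of 24 called), tRNA synthetases (2 of 18 higher), folate enzymes (1 of 17 lower) and MHC class I genes (2 of 15 called) had shares called below the 16.9% of all genes. The MHC class I count was 5 without DMSO replicate 1, 1 with all 12 PANC-1 libraries in the fit or without DMSO replicate 2 or DMSO replicate 3 or 3A4 replicate 1 or 3A4 replicate 3 and 6 with DESeq2. Its highest value in any alternative was 7.

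The genes with the strongest single changes included several outside these lists. By the rule for single genes, the 12 largest rises and falls were taken among called protein-coding genes whose groups did not overlap and whose higher group averaged 5 CPM or more. CAMK2A (ENSG00000070808, chromosome 5, 150219491 to 150290291), a calcium-activated kinase best known from neurons, was at 0.643, 0.326 and 0.350 CPM with DMSO and 8.70, 6.996 and 6.68 with 3A4 and rose 17.1-fold (log2 fold change 4.09 ± 0.294 SE, adjusted p = 0.000193). CPA4, a carboxypeptidase, was at 1.04, 0.285 and 0.934 CPM with DMSO and 12.8, 10.8 and 9.18 with 3A4 and rose 14.6-fold. THBD, the thrombomodulin of endothelium, was at 0.495, 1.06 and 0.623 CPM with DMSO and 8.90, 7.11 and 8.41 with 3A4 and rose 11.1-fold (log2 fold change 3.47 ± 0.289 SE, adjusted p = 0.000343). These genes were below 1 CPM in the mean with DMSO and above it in all 3A4 libraries. HSPA6, an inducible heat shock protein outside the list above, was at 0.792, 1.302 and 1.44 CPM with DMSO and 13.3, 6.80 and 13.2 with 3A4 and rose 9.28-fold. ANKRD1, a target of YAP, rose from 0.483 ± 0.0309 to 5.74 ± 1.05 CPM, and ARC, a synaptic immediate early gene, from 0.723 ± 0.328 to 5.55 ± 1.82 CPM. DHRS2, a mitochondrial reductase, was at 1.34, 1.22 and 1.13 CPM with DMSO and 8.38, 7.94 and 10.0 with 3A4 and rose 7.12-fold (log2 fold change 2.83 ± 0.182 SE, adjusted p = 0.000173). BCL2A1, EGR1 and FOSB, given above, and the histone gene HIST1H2BG completed the 12 with INO80B-WBP1, a readthrough of neighbouring genes. INO80B-WBP1 had no counts with DMSO and 23.6, 15.8 and 22.8 CPM with 3A4, but reads of a readthrough gene can be assigned to either neighbour, so its value is uncertain (call ended with all 36 (0.0939)).

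By p-value, ARSI, FBXO32, DHRS2, NOCT and NRIP1 led the genes that rose. ARSI (ENSG00000183876, chromosome 5, 150296343 to 150339307), an arylsulfatase, was at 18.8, 16.4 and 17.7 CPM with DMSO and 80.0, 105 and 92.0 with 3A4 and rose 5.23-fold (log2 fold change 2.39 ± 0.124 SE, adjusted p = 0.000156), the smallest adjusted p of the comparison. ARSI and CAMK2A, given above, lie close together on the minus strand of chromosome 5. Whether their rises are separate was not tested. FBXO32, the ubiquitin ligase subunit atrogin-1 of muscle wasting, was at 8.22, 8.99 and 9.84 CPM with DMSO and 30.1, 28.97 and 33.1 with 3A4 and rose 3.40-fold (log2 fold change 1.77 ± 0.113 SE, adjusted p = 0.000173). NOCT, a circadian phosphatase, was at 7.72, 7.24 and 7.82 CPM with DMSO and 22.9, 25.04 and 23.8 with 3A4 and rose 3.14-fold. The 3A4 libraries of these genes lay together, well above DMSO.

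Among falls, MUC16 (ENSG00000181143, chromosome 19, 8848844 to 8981342), the membrane mucin that carries the CA125 antigen, was at 20.9, 47.0 and 25.8 CPM with DMSO and 2.98, 4.13 and 1.80 with 3A4 and fell 10.3-fold (log2 fold change -3.37 ± 0.388 SE, adjusted p = 0.00116). DEPTOR, an inhibitor of mTOR, was at 12.8, 26.5 and 15.1 CPM with DMSO and 2.05, 5.66 and 2.63 with 3A4 and fell 5.20-fold (log2 fold change -2.38 ± 0.431 SE, adjusted p = 0.00752). EPHA5, an ephrin receptor, fell from 6.01 ± 0.730 to 1.19 ± 0.253 CPM, and FSCN2, an actin-bundling fascin, from 5.34 ± 1.55 to 1.07 ± 0.0512 CPM. All 3A4 libraries were below all DMSO libraries for these genes, as the rule for the 12 required. NEURL1B, a ubiquitin ligase of Notch ligands, fell 6.73-fold (call ended without 3A4 replicate 1 (0.0510)). PCDHGA2, PCDHGA3 and PCDH20, protocadherin genes of which the first pair shares exons with its neighbours, met the rule too. Their calls ended in 11, 11 and 7 alternatives in that order, for all 3 of them without DMSO replicate 2, DMSO replicate 3 or 3A4 replicate 1, with all 12 PANC-1 libraries in the fit and with only the 6 libraries compared (highest adjusted p = 0.110, 0.153 and 0.111). BMF, COL1A1 and SCD, given above, were also among the 12. By p-value, SLC2A12, a glucose transporter, was at 89.0, 70.7 and 72.1 CPM with DMSO and 22.4, 20.4 and 19.9 with 3A4 and fell 3.69-fold (log2 fold change -1.89 ± 0.137 SE, adjusted p = 0.000193). RAB26, a GTPase of secretory vesicles, fell from 41.0 ± 2.42 to 15.7 ± 0.0741 CPM, and the long noncoding RNA LINC02593 from 34.4 ± 2.97 to 8.42 ± 0.447 CPM.

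Some genes were not seen at all with DMSO. Of the called genes, 20 had 0 counts in all 3 DMSO libraries and 2 had 0 in all 3A4 libraries. A gene at 0 in a group could pass the filter only through other groups, so its direction was fixed in advance. Genes with any count numbered 25406, 25400 and 23772 in the 3A4 libraries and 22724, 23964 and 23963 in the DMSO libraries. The next 3 genes were chosen after their values were seen, and the alternatives were not run for them singly. ANKRD2, a muscle ankyrin repeat gene, was at least 41.4-fold higher (1.76 ± 0.380 CPM with 3A4), EVI2B, a gene of blood cells, at least 26.1-fold (1.11 ± 0.369 CPM) and ITGB7, a leukocyte integrin chain, at least 25.1-fold (1.07 ± 0.594 CPM). These bounds set the 3A4 mean against 3 counts over the summed DMSO totals with no allowance for error other than that of counting. CD14, a marker of monocytes, rose from 0.897 ± 0.209 to 3.73 ± 0.652 CPM and CD68, a lysosomal protein of macrophages, by 1.87 on the log2 scale, while the leukocyte gene PTPRC had at most 2 counts in a library.

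Calls were also counted by class of gene. Of 13714 protein-coding genes tested, 1112 rose (8.11%) and 1537 fell (11.2%). Of 1068 antisense genes 74 rose and 27 fell, and of 754 long intergenic noncoding RNA genes 64 rose and 24 fell. The file's counting is not stated to use strand, so antisense values are uncertain. Genes below 1 CPM rose in 111 and fell in 18 of 2838 cases, and genes over 100 CPM rose in 181 and fell in 382 of 2252. The part that level and depth play in these splits was not tested.

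Against GW3965, the agonist, 3A4 gave lower levels of the LXR targets and of both lipid synthesis lists. The comparison shares its 3A4 libraries with the one against DMSO, so the 2 are not independent. It called 2983 of 17919 genes (16.6%), 1344 higher (7.5%) and 1639 lower (9.15%). LXR targets were lower in 9 of 16 cases and higher in none (median log2 difference -1.43). ABCA1 was at 8.52 ± 2.12 CPM with 3A4 and 191 ± 43.9 with GW3965 (log2 difference -4.49 ± 0.257 SE, adjusted p = 4.27e-05), and ABCG1 at 0.740 ± 0.132 CPM with 3A4 and 41.7 ± 2.54 with GW3965 (log2 difference -5.80 ± 0.235 SE, adjusted p = 5.58e-06). MYLIP was at 16.6 ± 0.706 CPM with 3A4 and 55.0 ± 3.15 with GW3965 (log2 difference -1.73 ± 0.101 SE, adjusted p = 4.51e-05), so that the 3 targets not called against DMSO were lower than with the agonist. SREBF1 was at 76.6 ± 13.9 CPM with 3A4 and 522 ± 53.8 with GW3965, SCD at 1911 ± 542 CPM with 3A4 and 22537 ± 2347 with GW3965 and FASN at 620.0 ± 64.3 CPM with 3A4 and 2975 ± 115 with GW3965. Their log2 differences were -2.77, -3.56 and -2.26. The calls of these 6 genes were kept in all alternatives run for this comparison. NR1H2 did not differ beyond the spread (-0.15, 95% interval -0.37 to 0.08), and NR1H3 was lower (log2 difference -0.77 ± 0.195 SE, adjusted p = 0.0286), a call that ended without GW3965 replicate 2 (0.0921), without GW3965 replicate 3 (0.0732), without 3A4 replicate 1 (0.0878), without 3A4 replicate 2 (0.0847), without 3A4 replicate 3 (0.0611) and with all 36 (0.125).

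Fatty acid synthesis was lower than with GW3965 in 16 of 25 genes and cholesterol synthesis in 20 of 27. The integrated stress response was lower in 19 of 31 and higher in 1. Immediate early genes were higher in 9 of 15, EGF family genes in 6 of 8 and histones in 7 of 12. The genes outside lipid synthesis that set 3A4 apart were ARSI at 92.3 ± 12.5 CPM with 3A4 and 16.4 ± 1.40 with GW3965 (log2 difference 2.49 ± 0.124 SE, adjusted p = 2.21e-05), DHRS2 at 8.78 ± 1.09 CPM with 3A4 and 1.08 ± 0.0911 with GW3965 (log2 difference 3.01 ± 0.184 SE, adjusted p = 5.65e-05) and NOCT at 23.9 ± 1.08 CPM with 3A4 and 6.29 ± 0.358 with GW3965 (log2 difference 1.92 ± 0.110 SE, adjusted p = 4.27e-05). H19, lower than with DMSO, had a log2 difference of -0.61 from GW3965 that did not pass (95% interval -1.20 to -0.02, adjusted p = 0.141). The number of called genes was 1349 with all 12 PANC-1 libraries in the fit, 1395 with all 36, and 1383, 1737, 1352 and 1527 without GW3965 replicate 2, GW3965 replicate 3, 3A4 replicate 1 and 3A4 replicate 3.

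3A4 and 1E5, given at the same dose and time under the same label, differed in 6914 of 18544 genes (37.3%), 3422 higher with 3A4 (18.5%) and 3492 lower (18.8%), in a fit of the 12 PANC-1 libraries. The same fit called 1367 genes for 3A4 against DMSO, with the 3A4 libraries shared. This is 1 pair of compounds, and the p-values are adjusted over genes. Without 1E5 replicate 2, the library that stood apart, the count was 7286. All 29 mitosis genes and 33 of 34 replication genes were higher with 3A4 than with 1E5, while 30 of 31 integrated stress response genes and 13 of 23 ER chaperones were lower. KIF11, a spindle motor, was at 138 ± 3.19 CPM with 3A4 and 22.1 ± 2.21 with 1E5 (log2 difference 2.64 ± 0.149 SE, adjusted p = 1.13e-06; 2.72 without 1E5 replicate 2, adjusted p = 3.08e-06). HSPA5, the main ER chaperone BiP, was at 944 ± 17.4 CPM with 3A4 and 9241 ± 2547 with 1E5 (log2 difference -3.29 ± 0.185 SE, adjusted p = 1.13e-06; -3.05 without 1E5 replicate 2, adjusted p = 6.38e-07). MT-CYB, the mitochondrial cytochrome b, was at 5172 ± 564 CPM with 3A4 and 773 ± 78.9 with 1E5 (log2 difference 2.74 ± 0.136 SE, adjusted p = 1.00e-06; 2.81 without 1E5 replicate 2, adjusted p = 1.44e-06). The growth factor receptor gene NGFR and the calcium-binding protein gene S100P were the strongest of those lower with 3A4 among the smallest p-values, with NGFR at 10.6 ± 0.696 CPM with 3A4 and 387 ± 88.9 with 1E5 and S100P at 1.56 ± 0.326 CPM with 3A4 and 44.9 ± 2.92 with 1E5. Their log2 differences were -5.19 and -4.83, and -4.99 and -4.85 without 1E5 replicate 2.

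On the lipid genes the compounds were compared with and without that library. ABCA1 was at 8.49 ± 2.11 CPM with 3A4 and 9.23 ± 2.48 with 1E5, a log2 difference of -0.13 (95% interval -0.70 to 0.44), and -0.33 (adjusted p = 0.325) without 1E5 replicate 2. MYLIP differed by -0.08 (95% interval -0.32 to 0.16), and by -0.12 (adjusted p = 0.432) without it. ABCG1 was lower with 3A4 (0.737 ± 0.132 CPM with 3A4 and 5.99 ± 1.95 with 1E5; log2 difference -3.01 ± 0.290 SE, adjusted p = 2.15e-05; -2.73 without 1E5 replicate 2, adjusted p = 2.05e-05). FASN was higher with 3A4 (617 ± 64.0 CPM with 3A4 and 264 ± 121 with 1E5; log2 difference 1.23 ± 0.240 SE, adjusted p = 0.00208; 1.66 without 1E5 replicate 2, adjusted p = 3.16e-06), as was LPCAT3 (log2 difference 1.08 ± 0.101 SE, adjusted p = 1.77e-05; 1.12 without 1E5 replicate 2, adjusted p = 2.48e-05). SCD was at 529, 3298 and 594 CPM in the 3 libraries with 1E5 and at 1531, 2521 and 1655 with 3A4, so that 1E5 replicate 2 lay above the 3A4 libraries and the other two below. The log2 difference of SCD was 0.37 (95% interval -0.88 to 1.62, adjusted p = 0.651), and 1.75 (adjusted p = 0.000724) without that library. SREBF1 changed sides in the same way, with -0.11 (95% interval -1.02 to 0.81, adjusted p = 0.866) and 0.77 (adjusted p = 0.0170). The receptor gene NR1H2 was lower with 3A4 than with 1E5 (log2 difference -0.58 ± 0.106 SE, adjusted p = 0.00135; -0.57 without 1E5 replicate 2, adjusted p = 0.00193).

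The response to 3A4 was set beside that of the other lines in a fit of 27 libraries over 21350 genes, in which 1612 genes were called in PANC-1 (7.55%), 33 in BxPC-3 (0.155%) and 4025 in MIA PaCa-2 (18.9%). The response differed among the 3 lines for 1378 genes (6.45%; F test on the interaction of line and treatment, edgeR). It differed between PANC-1 and BxPC-3 for 129 genes (0.604%) and between PANC-1 and MIA PaCa-2 for 1206 (5.65%). DMSO libraries of MIA PaCa-2 held as few as 3609582 counts, which limits the precision there. The median log2 fold change of the cholesterol synthesis list was -0.50 in PANC-1, -0.49 in BxPC-3 and -0.08 in MIA PaCa-2. In the same order it was -0.41, -0.33 and -0.02 for LXR targets and -0.60, -0.31 and -0.23 for fatty acid synthesis. For SCD, FASN and FADS2 the estimate was lowest in PANC-1. SCD changed by -2.14 ± 0.243 in PANC-1, -1.39 ± 0.237 in BxPC-3 and -0.36 ± 0.234 in MIA PaCa-2 (log2 ± SE; F test adjusted p = 0.00698, and 0.174 with all 36 libraries). FASN changed by -1.26 ± 0.157 in PANC-1, -0.48 ± 0.155 in BxPC-3 and -0.14 ± 0.155 in MIA PaCa-2 (adjusted p = 0.00807, and 0.0501 with all 36). FADS2 changed by -1.77 ± 0.184 in PANC-1, -0.22 ± 0.190 in BxPC-3 and -1.20 ± 0.193 in MIA PaCa-2 (adjusted p = 0.00305), with a difference between PANC-1 and BxPC-3 of -1.54 (95% interval -2.09 to -0.999, adjusted p = 0.00474). PLIN2 rose most in PANC-1, with 1.71 ± 0.165 in PANC-1, 0.51 ± 0.162 in BxPC-3 and 0.66 ± 0.163 in MIA PaCa-2 (adjusted p = 0.00421), and differed from both other lines (adjusted p = 0.0129 and 0.00934).

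Several genes had estimates on opposite sides of 0. DHRS3 changed by 1.14 ± 0.158 in PANC-1, 0.36 ± 0.155 in BxPC-3 and -1.66 ± 0.170 in MIA PaCa-2 (adjusted p = 2.08e-06); in MIA PaCa-2 it was at 36.4, 34.97 and 34.0 CPM with DMSO and 13.9, 7.84 and 11.98 with 3A4. SEMA3C changed by -1.42 ± 0.243 in PANC-1, -0.66 ± 0.241 in BxPC-3 and 1.00 ± 0.244 in MIA PaCa-2 (adjusted p = 0.000591). IGFBP6, which binds insulin-like growth factor II, changed by 2.07 ± 0.192 in PANC-1, 0.20 ± 0.146 in BxPC-3 and -0.60 ± 0.147 in MIA PaCa-2 (adjusted p = 9.17e-06); in PANC-1 it was at 1.20, 0.999 and 1.06 CPM with DMSO and 3.79, 5.601 and 4.27 with 3A4. AREG rose in PANC-1 and had estimates near 0 in the others, with 1.74 ± 0.181 in PANC-1, -0.11 ± 0.139 in BxPC-3 and -0.20 ± 0.140 in MIA PaCa-2 (adjusted p = 7.17e-05; for the differences from BxPC-3 and MIA PaCa-2 0.000305 and 8.22e-05). CXCL8 and DUSP5 rose in PANC-1 and MIA PaCa-2, CXCL8 by 2.75 ± 0.355 in PANC-1, 0.10 ± 0.250 in BxPC-3 and 2.76 ± 0.269 in MIA PaCa-2 and DUSP5 by 1.95 ± 0.213 in PANC-1, 0.33 ± 0.204 in BxPC-3 and 2.54 ± 0.242 in MIA PaCa-2, and both differed between PANC-1 and BxPC-3 (adjusted p = 0.00428 and 0.00866). CDKN1A, the p21 inhibitor of the cell cycle, changed by -0.23 ± 0.187 in PANC-1, -0.05 ± 0.185 in BxPC-3 and 2.20 ± 0.243 in MIA PaCa-2 (adjusted p = 0.000146). For H19 (-1.85 ± 0.349 in PANC-1, -2.31 ± 0.359 in BxPC-3 and -2.10 ± 0.441 in MIA PaCa-2; adjusted p = 0.845) and HIST1H1C (2.49 ± 0.292 in PANC-1, 1.44 ± 0.283 in BxPC-3 and 1.72 ± 0.292 in MIA PaCa-2; adjusted p = 0.189) a difference among the lines was not detected. The F test calls of DHRS3, SEMA3C, IGFBP6, AREG, CXCL8, DUSP5 and CDKN1A were kept in every alternative run.

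**Figure D5:**
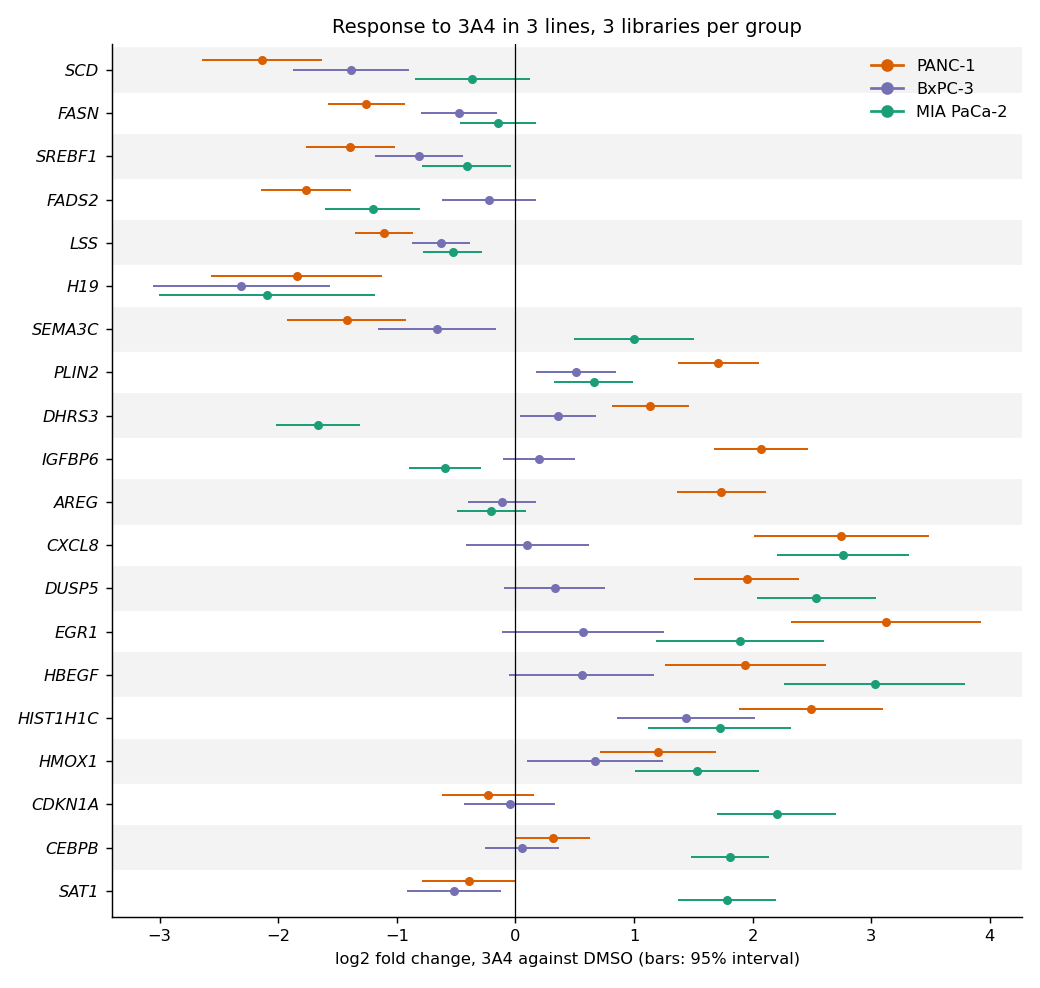
Log2 fold change of 3A4 against DMSO for 20 genes in PANC-1 (orange), BxPC-3 (purple) and MIA PaCa-2 (green), from 1 fit of 27 libraries, 3 per group. Points are estimates and bars 95% intervals. DHRS3 and SEMA3C lie on opposite sides of 0 in PANC-1 and MIA PaCa-2, and the intervals of AREG and IGFBP6 lie right of 0 in PANC-1 alone.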

How the data were processed

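RNA was sequenced from 36 libraries of 3 cell lines, of which the 12 from PANC-1 and the DMSO, 3A4 and GW3965 libraries of the other lines entered the main fits. The authors deposited whole-number counts per gene in 1 table. Per the labels' protocols, RNA was purified on columns and total RNA entered a stranded library kit. Per the submitters' processing notes, the tools were HISAT2 2.0.2, StringTie 1.3.1c, SAMtools 1.3 and Trim Galore 0.4.4, on GRCh38. Not given in the sources used here are the annotation, the strand setting and the handling of shared reads. Of 58658 table lines, 407 transcript lines and 8 assembled loci were left out, and 57980 of the 58243 gene lines matched GENCODE release 29 by identifier, which gave types and coordinates.

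The deposited counts were fitted with edgeR 4.0.16 (R 4.3.3; TMM scaling, filterByExpr with a minimum count of 10 and total of 15, two-sided quasi-likelihood test, Benjamini-Hochberg adjustment over all genes tested, threshold 0.05). The main fit held 9 libraries (DMSO, GW3965 and 3A4 in PANC-1), the fit with 1E5 held 12, and that of the lines held 27. CPM values are counts per TMM-scaled total, computed here. Replicate numbers were not taken as pairs, because the labels name no shared culture or day. The same-number correlations of deviations were 0.102, 0.131 and 0.0972, and those of different numbers ran from -0.0813 to -0.0275. These values lean towards pairing, and a fit with the number as a block is among the alternatives. Tests were checked on simulated counts. The lists, the rule for single genes and the choice of the main fit were made with earlier results of these data known.

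Single genes named were 9 LXR genes (ABCA1, ABCG1, SREBF1, MYLIP, SCD, FASN, LPCAT3, NR1H2 and NR1H3), the 12 highest and 12 lowest fold changes and the 5 smallest p-values in each direction, up to 4 called members per list (2 where none was called), and for other comparisons the 6 smallest p among these and the 4 smallest in each direction. Other list members are named where their call was kept in every alternative or the pathway turns on them, and were chosen after their values were seen. Some genes that met the rule are not reported here. The alternatives were RLE scaling, no filter, DESeq2 1.42.0, limma-voom (limma 3.58.1), a replicate block, each library left out, and other sets of libraries in the fit; 2 of them, counts thinned to equal totals and the PANC-1 libraries less 1E5 replicate 2, were added after seeing the data.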

Additional observations from a re-analysis of the deposited data

Results flagged for a closer look

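For 24 genes, the response to 3A4 differed among PANC-1, BxPC-3 and MIA PaCa-2. The test was the F test on the interaction of line and treatment (edgeR, adjusted over all genes). CXCL8, DUSP5, PLIN2, FADS2, EGR1, DHRS9, HBEGF, SEMA3C and DHRS2 were added by hand from genes named for the comparison with DMSO. The others are LXR genes or were taken by the naming rule for the lines. The 24 are a selection of the 1378 genes that passed that test, and further list members passed too. Those described with the lines above were DHRS3 (adjusted p = 2.08e-06), IGFBP6 (9.17e-06), AREG (7.17e-05), CDKN1A (0.000146), CXCL8 (0.000269), DUSP5 (0.000439), SEMA3C (0.000591), FADS2 (0.00305), PLIN2 (0.00421), SCD (0.00698) and FASN (0.00807). Values below are log2 fold changes of 3A4 against DMSO in the fit of 27 libraries, 3 per group.

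Genes whose PANC-1 estimate was not called in that fit included the keratin KRT15, at -0.21 ± 0.193 (SE) in PANC-1, -0.14 ± 0.192 in BxPC-3 and -2.35 ± 0.201 in MIA PaCa-2 (7.28e-05). The sodium channel subunit gene SCNN1A was at 0.18 in PANC-1, -0.15 in BxPC-3 and -2.12 in MIA PaCa-2 (5.39e-05). The ubiquitin ligase SMURF2 was at -0.09, -0.13 and 1.72 in the same order (7.17e-05), and SAT1, which acetylates polyamines, at -0.40, -0.52 and 1.78 (7.17e-05). The transcription factor CEBPB was at 0.32, 0.06 and 1.81 (0.000125) and LMO4 at -0.44, -0.67 and 1.02 (0.000125). LHFPL6 (5.39e-05) was at 0 counts in the DMSO libraries of MIA PaCa-2, so no fold is given there.

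Among genes called in PANC-1, the junction gene CLDN1 was at 1.07 ± 0.243 in PANC-1, -0.76 ± 0.238 in BxPC-3 and 2.00 ± 0.257 in MIA PaCa-2 (0.000269). EGR1 was at 3.13, 0.57 and 1.89 (0.00966) and HBEGF at 1.94, 0.56 and 3.03 (0.00728). The dehydrogenase genes DHRS9 (0.00247) and DHRS2 (0.00397) were at 3.71 and 2.80 in PANC-1, 0.29 and 0.45 in BxPC-3, and 0.23 ± 1.09 and 3.55 ± 0.705 in MIA PaCa-2, where both were under 1 CPM with DMSO. SREBF1 was at -1.39, -0.82 and -0.41 (0.0495). Its F test call ended with RLE scaling (0.0781), no filter (0.0531), limma-voom (0.0606), all 36 libraries (0.340), and without DMSO replicate 2 (0.148), DMSO replicate 3 (0.0713), 3A4 replicate 1 (0.125) or 3A4 replicate 3 (0.117) of PANC-1.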

How the results depend on the processing

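Of 254 named genes and list members called against DMSO, 97 were called in all 16 alternatives, 157 were not in at least 1, and 0 changed sign in any. The number of called genes against DMSO (3020) became 1367 with all 12 PANC-1 libraries in the fit and 1395 with all 36, and that of list members (230) became 118 and 143. Leaving out 1 library gave 1474 to 2800 genes and 145 to 210 list members. Against GW3965 (2983) the count was 1349 with 12 libraries and 1395 with 36, and 1352 to 2281 with 1 library left out. Against 1E5 (6914), leaving out 1 library gave 5451 to 7286, and 1 called gene changed sign without 3A4 replicate 1 and 1 without replicate 2. The count for a 3A4 response that differs among lines (1378) was 2996 with DESeq2 and 958 to 1193 with 1 PANC-1 library left out. With the 12 PANC-1 libraries less 1E5 replicate 2, 3101 genes and 229 list members were called against DMSO. Of the 254 named genes and list members, 115 were not called with all 12 libraries and 14 without that 1E5 library. Beyond these refits, the cause of the shifts was not tested. The remaining counts stayed within 1.5 times of the main ones, among them 2839 genes after thinning to equal totals.

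Uncalled log2 fold changes that changed sign when 1 library was left out were, against DMSO, NR1H2 (-0.084 to 0.053) and NR1H3 (-0.014 to 0.32), and against 1E5 ABCA1 (-0.33 to 0.068), SREBF1 (-0.43 to 0.77) and SCD (-0.033 to 1.75); the last pair was called without 1E5 replicate 2. SREBF1 against 1E5 was also at 0.17 with limma-voom and 0.074 with the replicate block. The cause was not tested. With the replicate number as a block, the calls were 4207 against DMSO (313 list members), 4257 against GW3965, 7258 against 1E5 and 1584 for a 3A4 response that differs among lines. Each 3A4 library correlated best with the DMSO library of its own number, a hint from the data and not from the design. Genes below 1 CPM rest on few counts, and 3A4 replicate 3 was the shallowest of the 6 libraries.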
